A study of Mus musculus with 8 samples.

Results

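The genes described here are 10 genes of the NRF2 antioxidant response: Nfe2l2, Nqo1, Cbr3, Srxn1, Txnrd1, Gclc, Gclm, Hmox1, Ugdh and Ephx1. They were taken from the arrays by name, as the gene probes whose recorded gene name was one of the 10. This gave 17 of 41174 gene probes, and at least 1 probe of each gene passed the filter on dim probes, so all 10 were among the 17354 genes tested. Expression was measured on 8 single-colour Agilent arrays of liver RNA from male wild-type C57Bl/6J mice, an inbred laboratory strain, at 14 weeks of age and after a fast of 4 h. Each of 4 diet groups has 2 arrays and is named by the mother's diet and then the diet after weaning. In the LF_LF group both periods were on a purified low fat diet (12% of calories as fat) that met the vitamin A requirement. The LF_HF group had this diet through the mother and a high fat one (60% of calories as fat) afterwards. The BD_HF group came from mothers on a standard breeder chow and was weaned onto that high fat diet. The VAD_VAD group had the low fat diet without adequate vitamin A in both periods. Pregnant mothers were on the breeder chow until a defined diet, where one was given, began at embryonic day 10.5. Each sample is whole liver, so the values mix all its cell types. The labels do not say that the 2 samples of a group came from separate animals, and p-values then measure the spread between these samples, which may be technical.

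NRF2, the protein made from Nfe2l2, is a transcription factor that is held at a low level in unstressed cells because KEAP1 directs it to degradation. Electrophiles and oxidants modify KEAP1, NRF2 then accumulates, pairs with small MAF proteins and binds antioxidant response elements in its target genes. Those targets make glutathione, repair oxidised thiols, reduce quinones and carbonyls, break down heme and supply conjugation reactions, and in the liver they are known for the handling of drugs, bile pigments and lipid peroxides. Much of the control of NRF2 lies in the stability of the protein, which arrays do not measure.

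The antioxidant response element is usually read as TGACNNNGC, and the site preferred by NRF2 with small MAF partners includes TGANTCAGC, so that some letters can match both. Both patterns were searched on both strands in the 250 bases before each RefSeq gene start on GRCm38.p6. TGACNNNGC was present in 10.16% of 32851 such windows and TGANTCAGC in 1.02%. A total of 8 of the 10 genes matched the table, in 10 windows, since Txnrd1 has 3; Hmox1 and Gclc had no entry. TGACNNNGC was found for Gclm, Nfe2l2, Ugdh and 1 of the 3 Txnrd1 windows, and TGANTCAGC was found for Srxn1. Neither pattern was in the windows of Cbr3, Nqo1 or Ephx1. The 150 bases before the start are printed for the 3 genes whose levels differed between groups below and for Ugdh, the gene with 2 matches. They run 5′ to 3′ on the gene's strand, with matches in capitals, and lie at chr2:152105374-152105523 (plus strand) for Srxn1, chr5:65435843-65435992 (minus) for Ugdh, chr16:93683069-93683218 (plus) for Cbr3 and chr8:107403206-107403355 (minus) for Nqo1.
Srxn1: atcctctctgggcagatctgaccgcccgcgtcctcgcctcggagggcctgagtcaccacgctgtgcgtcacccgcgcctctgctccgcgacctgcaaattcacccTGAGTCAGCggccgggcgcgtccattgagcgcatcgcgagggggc
Ugdh: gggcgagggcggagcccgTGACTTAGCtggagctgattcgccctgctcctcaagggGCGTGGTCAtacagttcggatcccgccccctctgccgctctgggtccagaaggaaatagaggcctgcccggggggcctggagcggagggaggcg
Cbr3: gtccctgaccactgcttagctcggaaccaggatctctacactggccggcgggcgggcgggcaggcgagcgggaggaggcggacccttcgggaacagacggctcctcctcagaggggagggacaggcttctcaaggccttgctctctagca
Nqo1: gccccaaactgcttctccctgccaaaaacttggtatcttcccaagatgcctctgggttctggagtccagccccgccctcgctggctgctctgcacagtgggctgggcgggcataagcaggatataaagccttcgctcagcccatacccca
The Srxn1 match, TGAGTCAGC, lies 45 to 37 bases before the start. The Ugdh matches are TGACTTAGC on the gene's own strand at 132 to 124 bases and GCGTGGTCA, a match on the other strand, at 94 to 86 bases. A match is a run of letters and not a measured binding site, and a window without a match says nothing of elements further away.

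Levels are given as the log2 of the processed signal minus the array's own 75th percentile, so 0 is the level that 75% of the signals lie below and 1 unit is a doubling. All 10 genes were well above background on every array, except that the main Gclm spot was marked as an outlier on BD_HF replicate 2 and has no value there. The clearest pattern was a higher level in LF_LF. Cbr3, Srxn1 and Nqo1 passed the test as lower in the mean of the other 3 groups than in LF_LF, by 18.9, 4.66 and 2.95-fold. Both LF_LF arrays lay above all 6 other arrays for 6 of the 9 genes with a value on every array: Cbr3, Srxn1, Nqo1, Ugdh, Txnrd1 and Nfe2l2. Of 16248 genes with a value on every array, 10.4% had this order. For Nfe2l2 the margin was 0.04 on its main probe, and its other probes did not have the order. For Gclc, Hmox1 and Ephx1 the LF_LF arrays overlapped with the others. Genes were compared with limma over all genes tested, and a gene was called at a Benjamini-Hochberg adjusted p under 0.05.

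**Figure D1:**
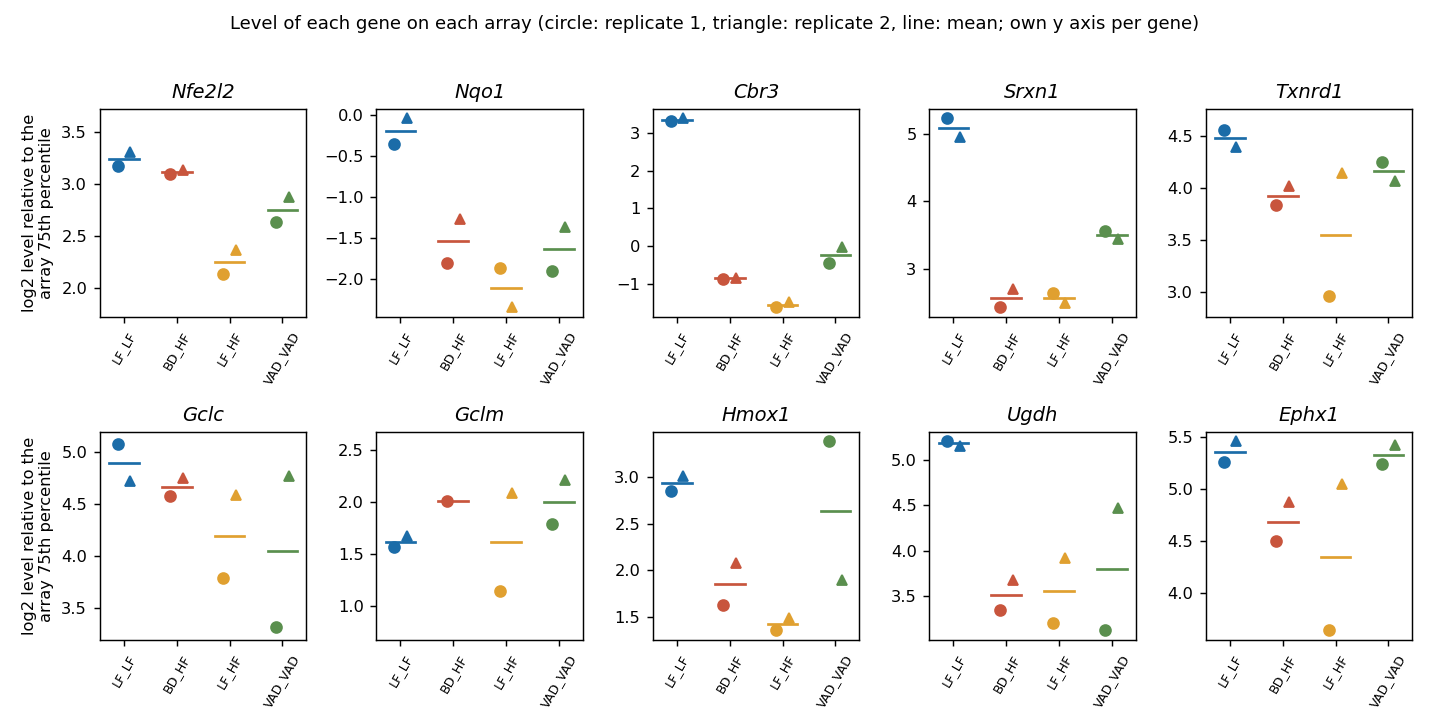
Log2 level of each of the 10 genes relative to the array's 75th percentile (y axis, a scale of its own for each gene) in the 4 diet groups (x axis); circles are replicate 1, triangles replicate 2 and lines the group means. The LF_LF arrays stand clear of the other 6 for Cbr3, Srxn1, Nqo1 and Ugdh, while Hmox1 and Gclc spread widely within VAD_VAD and Ephx1 and Txnrd1 within LF_HF.

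Some facts of the arrays bear on every value. The arrays lie on 2 slides, per the file headers, with replicate 1 of every group on slide 1 and replicate 2 on slide 2. LF_HF replicate 1 stands apart: its 75th percentile was 484 signal units against 190 to 281 on the other 7 arrays, 82.2% of its probes were well above background against 56.5% to 64.2%, and 2707 of its gene spots were outliers against 46 to 316. The 2 LF_HF arrays correlated at 0.917 over genes, against 0.977 to 0.992 in the other groups. Among the 10 genes the gap between the 2 arrays of a group had a median of 0.17 in LF_LF, 0.28 in BD_HF, 0.42 in VAD_VAD and 0.60 in LF_HF. The hepatocyte markers were present on every array: the summed level of the 8 tested of 10 listed genes ran from 1832 to 4022 multiples of the 75th percentile, with 1 gene missing from the sum of BD_HF replicate 2. All comparisons against LF_LF share the same 2 LF_LF arrays.

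Cbr3 showed the widest separation. It encodes a carbonyl reductase that uses NADPH, and its probe lies at chr16:93691120-93691179 on the plus strand of mm9, the build in the file headers. Its log2 level was 3.33 and 3.39 in LF_LF, −0.87 and −0.85 in BD_HF, −1.63 and −1.48 in LF_HF, and −0.44 and −0.01 in VAD_VAD. The lower LF_LF array was 3.34 above the highest of the other 6, and the arrays of the other 3 groups did not overlap with each other. The order of the means was LF_LF, VAD_VAD, BD_HF and LF_HF; BD_HF and LF_HF differed by 0.70 (SE 0.307), which did not pass (limma, adjusted p = 0.781), and VAD_VAD and BD_HF were not tested against each other. Against LF_LF, Cbr3 was 18.6-fold lower in BD_HF (log2 difference −4.22, SE 0.307, adjusted p = 0.0057), 30.2-fold lower in LF_HF (−4.92, adjusted p = 0.0034) and 12.0-fold lower in VAD_VAD (−3.59, adjusted p = 0.0153). Within slide 1 these differences were −4.20, −4.96 and −3.77, and within slide 2 they were −4.24, −4.88 and −3.40. Each difference kept its sign and most of its size when any array was left out, with values from −4.25 to −4.19, −4.99 to −4.84 and −3.80 to −3.37. The calls were less firm than the sizes. In BD_HF the adjusted p rose to 0.102 and 0.0989 without BD_HF replicate 1 or 2, and to 0.0962 and 0.0783 without LF_LF replicate 1 or 2. In LF_HF it rose to 0.0554 without LF_LF replicate 1. In VAD_VAD it was 0.0596 without either BD_HF array, 0.192 and 0.129 without LF_LF replicate 1 or 2, and 0.116 and 0.0833 without VAD_VAD replicate 1 or 2. No filter on dim probes ended the BD_HF and VAD_VAD calls (0.0694 and 0.138), only the groups compared the LF_HF call (0.0694) and quantile normalization the VAD_VAD call (0.0733). Without LF_HF replicate 1, the array that stands apart, all 3 stayed called (adjusted p = 0.000958, 0.00203 and 0.0022).

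Srxn1 encodes sulfiredoxin, which restores peroxiredoxins that have been oxidised too far to recycle on their own. Its log2 level was 5.24 and 4.96 in LF_LF, 2.43 and 2.70 in BD_HF, 2.64 and 2.49 in LF_HF, and 3.56 and 3.45 in VAD_VAD. LF_LF was highest, VAD_VAD came next without overlap, and the 2 high fat groups overlapped, with means that differed by 0.00 (SE 0.305). Srxn1 was 5.78-fold lower in BD_HF (log2 difference −2.53, SE 0.305, adjusted p = 0.0158) and 5.79-fold lower in LF_HF (−2.53, adjusted p = 0.0120). In VAD_VAD the difference was −1.59 and did not pass (adjusted p = 0.0853); it passed without either LF_HF array (adjusted p = 0.0158) and in 5 of 10 processing alternatives, such as normexp (0.0060) and trend and robust eBayes (0.0222). Within slides the 3 differences were −2.81, −2.59 and −1.67 on slide 1 and −2.25, −2.47 and −1.51 on slide 2. The BD_HF call was lost without BD_HF replicate 1 or 2 (adjusted p = 0.203 and 0.149) and without LF_LF replicate 1 or 2 (0.238 and 0.176), and the LF_HF call without LF_LF replicate 1 or 2 (0.179 and 0.142). No filter on dim probes ended both calls (0.103 and 0.0839), and array weights (0.165) and only the groups compared (0.149) ended the one in LF_HF. The probe that stands for the gene lies at chr2:151936919-151936978 on the plus strand of mm9. The other 2 Srxn1 probes, at chr2:151935185-151935244 and chr2:151935232-151935291, were also lower outside LF_LF: the mean of the other 3 groups differed from LF_LF by −2.22 on the first probe and by −1.98 and −1.57 on these. On the last of them, LF_HF replicate 1 stood at −0.28 and LF_HF replicate 2 at −1.85.

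Nqo1 encodes a quinone reductase that transfers electrons in pairs, and it is a standard readout of the pathway. Its probe is at chr8:109912440-109912499 on the minus strand of mm9. Its log2 level was −0.35 and −0.04 in LF_LF, −1.80 and −1.27 in BD_HF, −1.86 and −2.34 in LF_HF, and −1.90 and −1.36 in VAD_VAD. LF_LF was above all others by at least 0.92. VAD_VAD overlapped with BD_HF and with LF_HF, which did not overlap with each other. Nqo1 was 3.76-fold lower in LF_HF (log2 difference −1.91, SE 0.375, adjusted p = 0.0476). The differences of −1.34 in BD_HF (adjusted p = 0.170) and −1.44 in VAD_VAD (adjusted p = 0.211) did not pass. On slide 1 the differences were −1.46 in BD_HF, −1.52 in LF_HF and −1.55 in VAD_VAD, and on slide 2 they were −1.23, −2.30 and −1.32. The LF_HF call sat at the threshold: with slide as a block, which is also the replicate block, its adjusted p was 0.0539, without either BD_HF array 0.109, without LF_LF replicate 1 or 2 0.327 and 0.392, and without either VAD_VAD array 0.0788. It was also lost under quantile normalization (0.0591), no filter on dim probes (0.170), the mean over probes (0.0587), array weights (0.401) and only the groups compared (0.223). The BD_HF difference passed with array weights (0.0103) and with only the groups compared (0.0249), and the VAD_VAD difference with array weights (0.0277). Without either LF_HF array the BD_HF difference passed (adjusted p = 0.0469), and without LF_HF replicate 1 the LF_HF difference was −2.15 (adjusted p = 0.0178). With normexp background correction and an offset of 50, the differences were −0.82 in BD_HF, −1.09 in LF_HF and −0.93 in VAD_VAD.

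**Figure D2:**
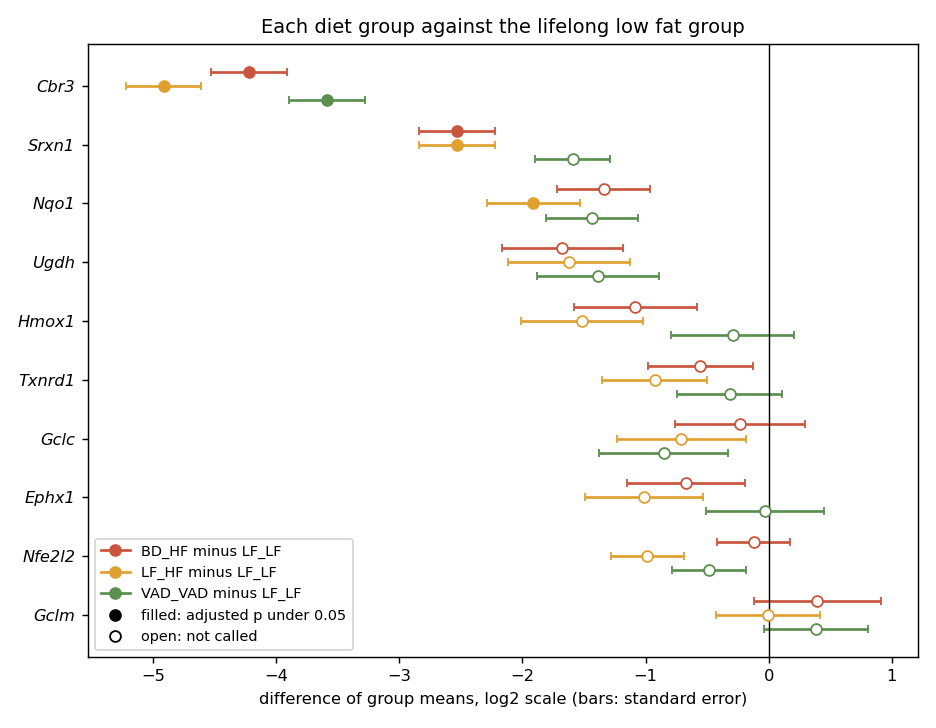
Difference of each group's mean from the LF_LF mean on the log2 scale (x axis) for the 10 genes (y axis), with the standard error as bars, from limma on all 8 arrays; filled points passed an adjusted p of 0.05. Cbr3 lies furthest from 0, at −3.59 to −4.92, and 6 points are filled, all of them Cbr3, Srxn1 and Nqo1.

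Txnrd1 encodes the cytosolic thioredoxin reductase, which uses NADPH to keep thioredoxin reduced. Its log2 level was 4.56 and 4.4 in LF_LF, 3.83 and 4.01 in BD_HF, 2.96 and 4.14 in LF_HF, and 4.25 and 4.07 in VAD_VAD. The LF_LF arrays were the highest, by 0.14 over the nearest other array. The difference in LF_HF was −0.93 (SE 0.425, adjusted p = 0.334) and came down to −0.34 without LF_HF replicate 1, the lowest of the 8 arrays; without LF_HF replicate 2 it was −1.52 and passed (adjusted p = 0.0118), as it did under normexp (−0.99, adjusted p = 0.0400). The differences in BD_HF and VAD_VAD were −0.55 and −0.32 and did not pass.

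Gclc and Gclm encode the catalytic and the modifier subunit of glutamate-cysteine ligase, the enzyme of the first and limiting step of glutathione synthesis. The log2 level of Gclc was 5.08 and 4.72 in LF_LF, 4.58 and 4.76 in BD_HF, 3.79 and 4.59 in LF_HF, and 3.32 and 4.77 in VAD_VAD. LF_LF replicate 2 lay below 2 of the other arrays, and the low arrays were the first replicates of LF_HF and VAD_VAD. The log2 level of Gclm was 1.57 and 1.67 in LF_LF, 2.01 on the 1 measured array of BD_HF, 1.14 and 2.09 in LF_HF, and 1.79 and 2.21 in VAD_VAD. Gclm was the only 1 of the 10 whose mean over the other 3 groups was not below LF_LF (difference 0.26, SE 0.358, adjusted p = 0.798); the BD_HF mean there is 1 array. Its second probe, with a value on all 8 arrays, gave 0.57 in BD_HF, 0.18 in LF_HF and 0.13 in VAD_VAD. No Gclc or Gclm difference from LF_LF passed in any comparison, the smallest adjusted p being 0.547 for Gclc in LF_HF.

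Hmox1 encodes heme oxygenase, which opens the heme ring and releases iron, and is also known for its level in macrophages that take up red cells. Its log2 level was 2.85 and 3.02 in LF_LF, 1.62 and 2.08 in BD_HF, 1.35 and 1.48 in LF_HF, and 3.39 and 1.89 in VAD_VAD. Both high fat groups lay below LF_LF without overlap, and the VAD_VAD arrays lay on either side of it. None of the differences passed: −1.08 in BD_HF (SE 0.499, adjusted p = 0.440), −1.52 in LF_HF (adjusted p = 0.188) and −0.29 in VAD_VAD (adjusted p = 0.871). The BD_HF difference passed with only the groups compared (0.0355) and the LF_HF difference under normexp (0.0478). On slide 1 the VAD_VAD difference was 0.54 and on slide 2 it was −1.13. A second Hmox1 probe was well above background on 1 array and was left out.

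Ugdh and Ephx1 serve conjugation and detoxification. Ugdh makes UDP-glucuronate, the sugar donor for glucuronidation, and Ephx1 encodes microsomal epoxide hydrolase. The log2 level of Ugdh was 5.21 and 5.16 in LF_LF, 3.34 and 3.68 in BD_HF, 3.20 and 3.92 in LF_HF, and 3.12 and 4.47 in VAD_VAD. LF_LF was above all others by at least 0.69, and the other 3 groups overlapped. The differences of −1.68 in BD_HF (SE 0.495, adjusted p = 0.194), −1.63 in LF_HF (adjusted p = 0.160) and −1.39 in VAD_VAD (adjusted p = 0.375) did not pass. The mean of the other 3 groups differed by −1.56, which is close to the −1.56 of Nqo1, but with an adjusted p of 0.108 by limma it was not called. Without LF_HF replicate 2, which leaves the array that stands apart as the only LF_HF array, the LF_HF difference was −1.98. The difference of the mean passed under normexp (0.0185), a filter on all 8 arrays (0.0455), trend and robust eBayes (0.0173) and array weights (0.0234). That in BD_HF passed in 4 of 10 processing alternatives (0.0069 to 0.0475), and that in LF_HF under normexp (0.0292) and trend and robust eBayes (0.0448). The log2 level of Ephx1 was 5.26 and 5.46 in LF_LF, 4.50 and 4.88 in BD_HF, 3.64 and 5.05 in LF_HF, and 5.24 and 5.42 in VAD_VAD. LF_LF and VAD_VAD overlapped, with a difference of −0.03 (SE 0.479), and both lay above the high fat arrays. The Ephx1 difference in LF_HF, −1.01 (adjusted p = 0.345), was −0.31 without LF_HF replicate 1 and −1.72 without LF_HF replicate 2, where it passed (adjusted p = 0.0109).

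Nfe2l2, the gene of NRF2 itself, is measured at the RNA level alone. Its main probe stood at 3.17 and 3.31 in LF_LF, 3.1 and 3.14 in BD_HF, 2.14 and 2.37 in LF_HF, and 2.64 and 2.88 in VAD_VAD. The LF_LF arrays were above all others, by 0.04 over BD_HF, and LF_HF was the lowest group, without overlap. The difference from LF_LF was −0.12 in BD_HF (SE 0.298, adjusted p = 0.938), −0.99 in LF_HF (adjusted p = 0.158) and −0.48 in VAD_VAD (adjusted p = 0.673). Without LF_HF replicate 2, which leaves the array that stands apart as the only LF_HF array, the LF_HF difference was −1.10. Under normexp it passed at −1.01 (limma, adjusted p = 0.0151). A second probe, at chr2:75513917-75513976 beside the first at chr2:75513771-75513830, gave a close value, with −0.50 for the mean of the other 3 groups against −0.53. On this second probe LF_LF was not above all others: BD_HF replicate 1 stood at 2.651 and LF_LF replicate 1 at 2.642. The last probe, at chr2:75529947-75530006, differed from both with 0.24, and on it VAD_VAD replicate 1 stood at −0.07 against −1.96 on VAD_VAD replicate 2. The LF_LF arrays, at −1.90 and −1.16 on that probe, overlapped with the others.

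**Figure D3:**
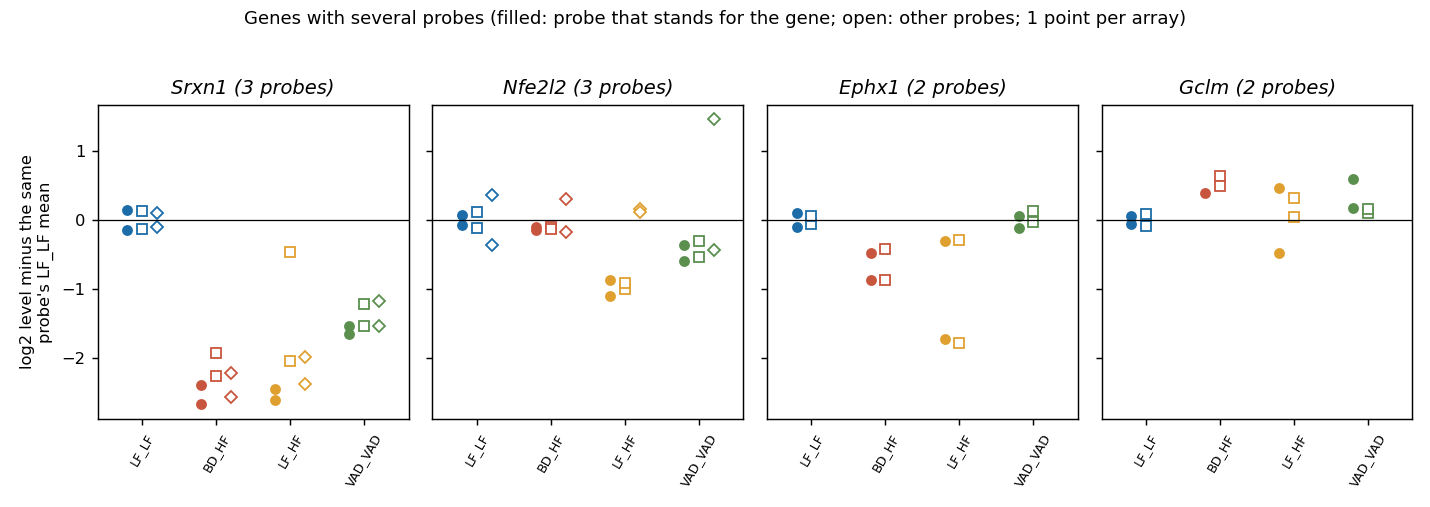
Log2 level on each array minus the same probe's own LF_LF mean (y axis) in the 4 groups (x axis) for the 4 genes with more than 1 probe above background; filled symbols are the probe that stands for the gene, open symbols its other probes. All 3 Srxn1 probes lie below 0 outside LF_LF, the 2 Ephx1 probes coincide, and the last Nfe2l2 probe (diamonds) departs from the other 2.

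The 10 genes and the lists below were chosen with earlier results of these data known, so their counts beside those of all genes are a description. By count, 2 of the 10 genes were called in BD_HF minus LF_LF, both lower (Cbr3 and Srxn1), where 1.61% of all genes were called in either direction and 1.16% lower. In LF_HF minus LF_LF, the comparison of the later diet under the same maternal diet, 3 of 10 were called, all lower (Cbr3, Srxn1 and Nqo1), against 2.57% of all genes and 1.98% lower; with slide as a block it was 2 of 10. In VAD_VAD minus LF_LF, the comparison of vitamin A supply, 1 of 10 was called, lower (Cbr3), against 0.611% and 0.519% lower. In the mean of the other 3 groups 3 of 10 were called, all lower, against 2.78% and 2.11% lower; the slide block left 2, with Nqo1 at an adjusted p of 0.0525. Nqo1 in this mean also missed the threshold without BD_HF replicate 1 or 2 (0.143 and 0.110), LF_LF replicate 1 or 2 (0.395 and 0.547) or VAD_VAD replicate 1 or 2 (0.107 and 0.0788), and under quantile normalization (0.114), no filter (0.177) and the mean over probes (0.0543). In the same mean, Srxn1 missed it without LF_LF replicate 1 or 2 (0.202 and 0.146) and with no filter (0.0569), and Cbr3 without LF_LF replicate 1 (0.0613). The median difference of the 10 genes was −0.88 in BD_HF, −1.27 in LF_HF, −0.67 in VAD_VAD and −0.78 in the mean, against 0.08, −0.06, 0.07 and 0.03 over all genes tested. The sign was negative for 9, 10, 9 and 9 of the 10 genes, and for 7638, 9296, 7830 and 8194 of all 17354 genes tested. The 10 in LF_HF include Gclm at −0.005, which was 0.47 without LF_HF replicate 1.

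Maternal diet under the same high fat diet was compared as BD_HF minus LF_HF. By limma, 0 of the 10 genes were called, 1 was under an unadjusted p of 0.05 (Nfe2l2, 0.86, adjusted p = 0.781) where 5.45% of all genes were, and 0.00576% of all genes were called. The median difference of the 10 genes was 0.42, where the median of all genes tested was 0.17. Single genes differed by slide, and slide 1 holds LF_HF replicate 1, the array that stands apart. On slides 1 and 2, Txnrd1 differed by 0.87 and −0.13, Ephx1 by 0.86 and −0.17, and Gclc by 0.79 and 0.16. Larger on slide 2 were Nqo1 (0.06 and 1.08), Hmox1 (0.27 and 0.60) and Srxn1 (−0.22 and 0.22). Srxn1 differed by 0.00, Ugdh by −0.05 and Cbr3 by 0.70. Without LF_HF replicate 2, which leaves the array that stands apart as the only LF_HF array, Nfe2l2 differed by 0.98. Without LF_HF replicate 1 it differed by 0.75, Txnrd1 by −0.22 and Ephx1 by −0.36.

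The other genes of the pathway came from lists by role, 80 genes of which 78 were tested. In BD_HF, LF_HF and VAD_VAD against LF_LF, 3, 3 and 3 of these 78 were called, all lower. Over all genes tested, 1.16%, 1.98% and 0.519% were called lower. The pathway count in BD_HF and in VAD_VAD includes Slc7a11, whose direction the filter on dim probes fixed. The median differences of the 78 genes were 0.05, −0.37 and 0.06. In the mean of the other 3 groups 4, again with Slc7a11, were lower and 1 was higher. There 2.78% of all genes were called in either direction and 2.11% lower. Both LF_LF arrays were above the other 6 for 17 of the 73 with a value on every array, or 23.3%. They were below the other 6 for 4 genes, and the remaining 52 overlapped. Over all genes with a value on every array, 10.4% lay above and 8.22% below.

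Among 10 regulators of NRF2 tested, limma called 0 in any comparison against LF_LF, with 1, 1 and 0 under an unadjusted p of 0.05 in BD_HF, LF_HF and VAD_VAD, where 12.7%, 16.5% and 10.2% of all genes tested were. Sqstm1, which encodes p62, a protein that can draw KEAP1 into autophagy, stood at 7.43 and 7.23 in LF_LF and between 5.52 and 6.71 on the other 6 arrays; its difference in LF_HF was −1.54 (SE 0.359, adjusted p = 0.0802). Rbx1, part of the ubiquitin ligase that KEAP1 works with, differed by −0.25 to 0.34. Keap1, named here after its values were seen, stood at 4.02 and 4.0 in LF_LF and between 3.15 and 3.87 elsewhere, a mean difference of −0.34 that did not pass (adjusted p = 0.652).

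The glutathione list had 8 tested genes, of which 1 was called lower in each of the 3 groups: Slc7a11 in BD_HF and VAD_VAD and Gpx2 in LF_HF. The share of all genes called lower was 1.16% in BD_HF, 1.98% in LF_HF and 0.519% in VAD_VAD. Slc7a11, the cystine importer that feeds glutathione synthesis, was well above background on both LF_LF arrays (−3.01 and −3.66) and on none of the other 6. It passed the filter on dim probes only through LF_LF, so the filter fixed its direction and its levels are a description, with no test. It was at least 3.09-fold lower in BD_HF, 2.44-fold in LF_HF and 3.33-fold in VAD_VAD, bounds that set the dim arrays to the lowest level well above background on them. Under normexp the fitted difference was −0.31, −0.29 and −0.31. Gpx2, a glutathione peroxidase, was at −0.99 and −1.03 in LF_LF, −2.68 and −3.57 in BD_HF, −4.20 on the 1 measured LF_HF array and −3.10 and −3.26 in VAD_VAD. It was called in LF_HF (−3.19, adjusted p = 0.0308), a call lost without any 1 of the BD_HF (0.0639), LF_LF (0.262 and 0.240) or VAD_VAD (0.0712) arrays. That call rests on 1 LF_HF array, which is assumed to vary like the other groups. Under normexp the difference shrank to −0.55 (adjusted p = 0.154), and the call was also lost with no filter on dim probes (0.143), with array weights (0.374) and with only the groups compared (0.192). The most abundant members, Gpx1 and Gpx4, stood at 9.30 and 9.34 and at 7.26 and 7.49 in LF_LF, and neither was called.

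Conjugation enzymes gave 2 lower genes of 14 tested in each group, against 1.16%, 1.98% and 0.519% of all genes in BD_HF, LF_HF and VAD_VAD. Gsta2, an alpha class glutathione transferase, was at 3.70 and 3.94 in LF_LF and between −0.73 and 0.44 on the other 6 arrays. It was lower by a log2 difference of −4.01 in BD_HF, −4.04 in LF_HF and −3.97 in VAD_VAD (SE 0.487, adjusted p = 0.0159, 0.0120 and 0.0253). Gsta1 was at 5.32 and 5.37 in LF_LF and between 1.37 and 2.37 on the 5 other arrays with a value, a difference of −3.20, −3.31 and −3.52 (adjusted p = 0.0254, 0.0320 and 0.0334). The LF_HF value of Gsta1 is 1 array, which is assumed to vary like the other groups. Gsta1 and Gsta2 are near-identical, so their probes can share signal. The Gsta2 calls did not stand without LF_LF replicate 1 or 2, with adjusted p from 0.132 to 0.257, nor in BD_HF and VAD_VAD without an array of the group itself (0.0833 to 0.183); the VAD_VAD call was also lost without either BD_HF array (0.0897). The Gsta1 calls were lost in the same cases (0.101 to 0.317), and in LF_HF also without either BD_HF (0.0877) or VAD_VAD (0.0535) array. With no filter on dim probes the calls of both genes were lost in all 3 groups (0.089 to 0.215), and with array weights or only the groups compared those in LF_HF were (0.0873 to 0.343). Quantile normalization ended the VAD_VAD call of Gsta2 (0.0538). Gsta3 and Gstm1, the most abundant of the list, differed by 0.42 to 0.96 and by −0.96 to 0.14 and were not called. The median of this list was −0.56, −0.60 and 0.05 in BD_HF, LF_HF and VAD_VAD.

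The remaining lists gave 1 call. Ces2a, a carboxylesterase among 12 genes of reduction and hydrolysis, was at 1.93 and 2.15 in LF_LF and between 3.24 and 4.42 on the other 6 arrays. It was higher in the mean of the other 3 groups (2.02, SE 0.350, limma, adjusted p = 0.0312), where 116 of all 17354 genes tested were called higher. This call was lost without any 1 of the LF_LF (0.402 and 0.315), BD_HF (0.0802 and 0.103) or VAD_VAD (0.0840 and 0.0758) arrays, and with no filter on dim probes (0.141). In each single group the gene missed the threshold (0.0781 in BD_HF, 0.0953 in LF_HF and 0.0806 in VAD_VAD), and it passed in all 3 under quantile normalization, normexp, a filter on all 8 arrays and trend and robust eBayes (0.0038 to 0.0418). Of 9 thioredoxin and peroxiredoxin genes, 6 genes of NADPH supply, 5 exporters, 6 genes of heme and iron and 8 other targets, 34 in all, limma called 0 against LF_LF, with 5, 7 and 6 under an unadjusted p of 0.05 in BD_HF, LF_HF and VAD_VAD, against those 12.7%, 16.5% and 10.2% of all genes. The most abundant in each were Prdx6 and Prdx1, Taldo1 and Tkt, Abcc2 and Abcc3, Fth1 and Ftl1, and Sod1 and Sod2. Their differences in the mean of the other 3 groups ran from −0.16 for Prdx1 to 0.54 for Prdx6. Mt1 and Mt2, metallothioneins named here after their values were seen, spread most within VAD_VAD, at 10.36 and 3.19 and at 9.97 and 2.81.

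**Figure D4:**
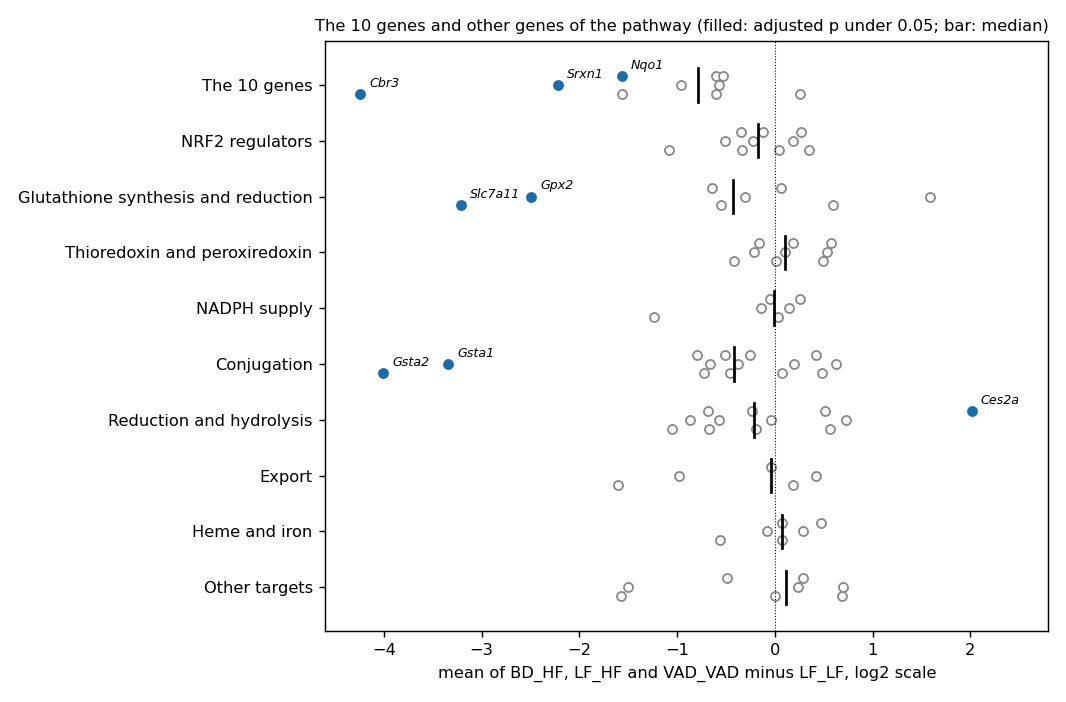
Difference of the mean of BD_HF, LF_HF and VAD_VAD from LF_LF on the log2 scale (x axis) for the 10 genes and 78 further genes of the pathway by list (y axis); filled, named points passed an adjusted p of 0.05 and bars are list medians. The named points lie in 4 rows, with Ces2a the only one to the right of 0; Slc7a11 is drawn at its fitted value, which is not a bound, and its direction was fixed by the filter.

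Markers of some other cell types, though not of all, moved in the same comparisons. The summed level of 12 macrophage markers was 198 and 179 multiples of the 75th percentile in LF_LF and 66.2 to 130 on the other 6 arrays. It was 54.5 and 56.2 against 7.3 to 14.4 for 6 stellate cell and fibroblast markers, 27.4 and 19.8 against 1.1 to 2.1 for 6 markers of cycling cells, and 19.9 and 29.2 against 6.5 to 12.0 for 6 cholangiocyte markers. On LF_HF replicate 1, which gives the 7.3, 1 of the 6 fibroblast markers has no value, as does 1 of the cholangiocyte markers; the lowest complete fibroblast sum was 7.6. Among the macrophage genes 4, 4 and 1 of 12 were called lower in BD_HF, LF_HF and VAD_VAD, with Trem2 lower in all 3 (−3.40, −3.75 and −2.80), and 1 was higher, Cd163 (2.91, 2.46 and 3.08). Gpnmb, a marker of lipid-laden macrophages, was well above background on both LF_LF arrays, 0 BD_HF arrays, 1 LF_HF array and 1 VAD_VAD array; it passed the filter only through LF_LF and is 1 of the 4 counted as lower in BD_HF. Of the fibroblast list 4, 4 and 3 of 6 were lower, of the cycling list 4, 4 and 4 of 6, and of the cholangiocyte list 0, 2 and 1 of 6. Over all genes tested, 1.16%, 1.98% and 0.519% were called lower in BD_HF, LF_HF and VAD_VAD. In the cycling list 1 gene was well above background on no BD_HF array, so its fitted difference there is not a measured size. In whole liver, fewer cells of a type and less RNA per cell cannot be told apart. The part of these cells in the differences of Cbr3, Srxn1, Nqo1 and the other pathway genes was not tested. Neutrophil markers followed another order, with 4 tested genes summing to 20.0 and 26.2 in VAD_VAD and 1.8 to 6.4 elsewhere, 1 of them without a value on LF_HF replicate 1. For 3 more lists LF_LF lay inside the range of the other arrays, and 0 of their genes were called. The endothelial sum was 30.2 and 30.4 in LF_LF against 13.5 to 54.7. Lymphocyte markers summed to 2.47 and 1.76 against 1.73 to 2.62, and erythroid markers to 84.4 and 87.5 against 62.5 to 341. The hepatocyte list was 2551 and 2483 in LF_LF, inside the range of the other arrays. Of its 8 tested genes, 1 was called higher in BD_HF, where 79 of 17354 genes were, and 0 in LF_HF and VAD_VAD. Its median difference from LF_LF was 0.41 in BD_HF, 0.07 in LF_HF and 0.64 in VAD_VAD.

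**Figure D5:**
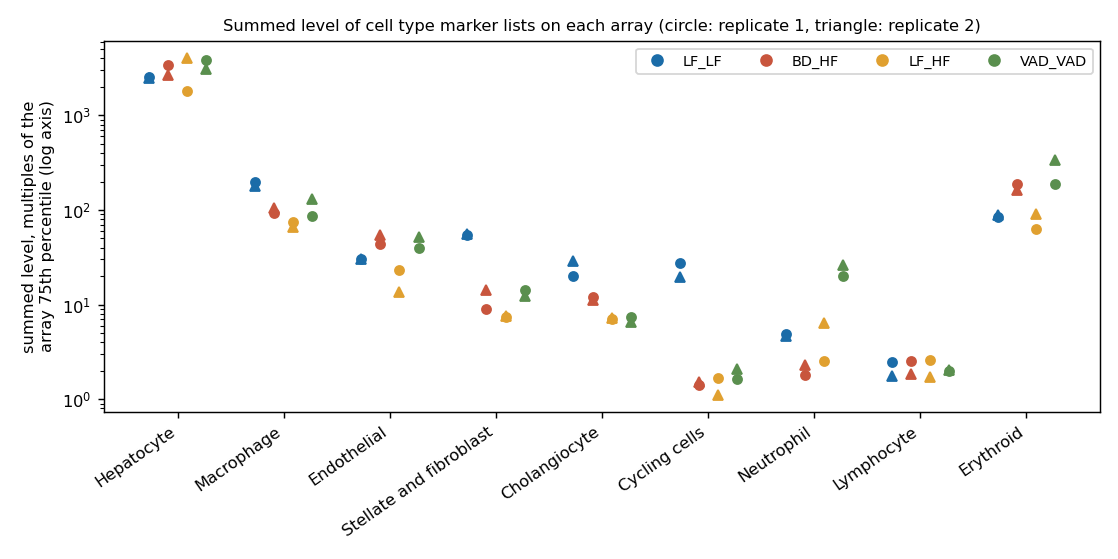
Summed level of each marker list in multiples of the array's 75th percentile (y axis, log scale) on each array, coloured by group, for 9 cell types (x axis). LF_LF is highest for the macrophage, stellate and fibroblast, cholangiocyte and cycling lists. It lies within the range of the other arrays for the hepatocyte, endothelial, neutrophil, lymphocyte and erythroid lists.

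Likeness to Nqo1 across arrays was described by Pearson's r over the 8 arrays among 13485 genes with a value on each and a settled name. The 5 most alike were Ppp1r9b (0.989), Bambi (0.988), Axl (0.980), Il10rb (0.979) and Mpeg1 (0.978), and without LF_HF replicate 1 their r was 0.977 to 0.991. Mpeg1 and Axl are known from macrophages. Among the genes of the NRF2 response, r to Nqo1 was 0.939 for Cbr3, 0.879 for Srxn1, 0.841 for Ugdh, 0.761 for Nfe2l2, 0.572 for Hmox1, 0.537 for Gclc, 0.519 for Txnrd1 and 0.465 for Ephx1. The 8 points are arrays of 4 groups, so these values mostly describe the step between LF_LF and the rest.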

How the data were processed

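Liver RNA of 8 samples was hybridised to single-colour Agilent arrays. The deposited values are processed signal intensity per spot, background-subtracted with Feature Extraction version 10.7.3.1 from Agilent, and the build is mm9, per the file headers; the submitters' processing notes also name limma, without a version. The authors' deposited series table holds the same intensity on a linear scale, not centred, within 0.497%. Here the log2 of the processed signal, computed from the deposited intensity, minus each array's 75th percentile was used. Outlier and control spots were left out. A probe was kept if some group had both of its arrays well above background (26224 of 41174 were), and the probe of highest mean level stood for a gene. No gene spot was saturated. Groups were compared with limma 3.58.1 in R 4.3.3 (lmFit and eBayes on all 8 arrays, 4 residual and 3.43 prior degrees of freedom), with Benjamini-Hochberg adjustment over 17354 genes. The 2 arrays of a group limit the precision. The fit was tested on simulated data.

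The comparison of BD_HF with LF_LF was added here: mother's diet and later diet both differ. The genes and lists were chosen with earlier results of these data known. The rule for naming genes was all 10 genes, the called genes of each list, otherwise its 2 of highest signal, and the 5 genes most like Nqo1. Samples with the same number share a slide, per the file headers, and their deviations from the group means correlated at 0.0994 to 0.304. Promoter sequences are from RefSeq on GRCm38.p6, and probe positions on mm9 were not assigned to exons.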

Additional observations from a re-analysis of the deposited data

How the results depend on the processing

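Across the 10 genes and 5 comparisons, 810 alternative values kept direction and side of the threshold, 51 lost a call, 35 gained one, 21 moved without one, and 0 called values changed sign. Every one of the 10 genes called against LF_LF under any alternative was lower there. The number of them called was 2 in BD_HF, 3 in LF_HF, 1 in VAD_VAD and 3 in the mean of the other 3 groups. With no filter on dim probes it was 0, 1, 0 and 1 by limma, with 4, 6, 4 and 4 under an unadjusted p of 0.05. Over all genes in that setting, 1875, 4455, 1487 and 2487 were under it. With array weights it was 4, 1 and 3 in the 3 groups, and with only the groups compared 5, 0 and 2 (5 unadjusted in LF_HF, against 1868 over all genes). Normexp gave 7 in LF_HF and 2 in VAD_VAD, where it called 2534 and 380 over all genes. Quantile normalization gave 0 in VAD_VAD (5 unadjusted, against 2071 over all genes). VAD_VAD also had 2 with a filter on all 8 arrays, with trend and robust eBayes, and without the LF_HF group, the last chosen after seeing the data. Leaving out 1 array gave 0 to 3, 0 to 7, 0 to 2 and 0 to 5, and 0 to 1 in BD_HF minus LF_HF; a lone array left in a group is assumed to vary like the others.

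With slide as the replicate block, the pairing by number, the counts were 2, 2, 1, 2 and 0; of the 10 genes, only Nqo1 changed its call, in LF_HF (0.0539) and in the mean (0.0525).

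Over all genes, 280 were called in BD_HF, 446 in LF_HF, 106 in VAD_VAD, 482 in the mean and 1 in BD_HF minus LF_HF. Array weights gave 2834, 4, 1177, 1611 and 0, normexp 731, 2534, 380 and 992, and no filter 0, 30, 0, 43 and 0. Trend and robust eBayes gave 613, 852, 294 and 902. Only the groups compared gave 2581, 0, 522, 1686 and 0. In that setting the mean left out LF_HF and was that of BD_HF and VAD_VAD alone. Quantile normalization gave 892 in LF_HF, 730 in the mean and 0 in BD_HF minus LF_HF. The mean over probes gave 176 in BD_HF, the filter on all 8 arrays 171 in VAD_VAD and 0 in BD_HF minus LF_HF, the replicate block 69 and 0 there, and leaving out the LF_HF group 1613 in BD_HF and 937 in VAD_VAD. Leaving out 1 array gave 0 to 1613, 0 to 4366, 0 to 937, 0 to 2288 and 0 to 3103. Normexp called 1455 genes higher and 1079 lower in LF_HF against 102 and 344, and 104 and 276 in VAD_VAD against 16 and 90. Among the fits leaving out 1 array, the highest counts in LF_HF and in BD_HF minus LF_HF came without LF_HF replicate 2. Those fits keep LF_HF replicate 1, the array that stands apart, as the only LF_HF array. Why these counts move was not tested.

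The other pathway genes called were 3, 3, 3, 5 and 0. Normexp gave 8, 18, 6 and 12, no filter 0 in each and array weights 20, 0, 9 and 12. Only the groups compared gave 14, 0, 5 and 8, the last again from a mean without LF_HF. Trend and robust eBayes gave 5, 10 and, in the mean, 8, and quantile normalization 7 in LF_HF. The filter on all 8 arrays gave 5 in LF_HF and 3 in the mean, and leaving out the LF_HF group 8 in BD_HF and 7 in VAD_VAD. Leaving out 1 array gave 0 to 8, 0 to 18, 0 to 7, 0 to 13 and 0 to 5.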
